A study of Mus musculus with 12 samples.

Results

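The receptors for noradrenaline and adrenaline, serotonin, acetylcholine (muscarinic class) and histamine were examined in brain and liver of heat-stressed aging mice. Members were taken by symbol from the merged count table: the adrenergic (Adra1, Adra2, Adrb), serotonin (Htr1 to Htr7), muscarinic (Chrm) and histamine (Hrh) receptor genes. These rules matched 32 of 25239 genes, with 9 adrenergic, 14 serotonin, 5 muscarinic and 4 histamine receptors. All animals were wild-type male C57BL/6J mice aged 24 months. The heat stress (HS) group was held at 40 °C and 60% relative humidity for 3 hours per day over 15 days, and the control (CO) group was its reference. RNA was sequenced from a small piece of frozen brain or liver, with 3 libraries for each group and tissue and 12 in all. The region of the brain that was taken is not stated in the labels or methods. The methods give 3 animals per group, and the labels do not say which animal a library came from.

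These transmitters act mainly through receptors that span the membrane and switch on G proteins. Receptors coupled to Gq activate phospholipase C and release calcium inside the cell. Receptors coupled to Gs raise cyclic AMP, while receptors coupled to Gi lower it and open potassium channels. Htr3a and Htr3b are the exception, being subunits of an ion channel that serotonin opens. In the brain this family sets arousal, attention, mood and thermoregulation, and in the liver adrenergic receptors drive glucose output. By coupling the 32 members comprised 10 Gq, 13 Gi and 7 Gs receptors and 2 channel subunits.

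Library totals ranged from 10466198 to 15609040 counts. The receptors together took 0.0493% to 0.0662% of the counts of a brain library and 0.00639% to 0.00947% of those of a liver library. Marker genes matched the labelled tissues. Alb gave 618111 to 1344219 counts in each liver library and at most 107 in a brain library, and Hnf4a, a hepatocyte transcription factor, was at 0 in every brain library. Liver control 1 and liver heat 2 stood apart. Their summed skeletal muscle markers (8 genes) were 390 and 2229 normalized CPM (counts per 1000000 counts of a library), against 1.03 to 6.94 in the other 4 liver libraries. Liver control 1 also held 132 counts of the neuronal gene Snap25, where the other liver libraries held 0 to 14. Summed adipose tissue markers (5 genes) were 29.6 to 57.1 CPM in the liver libraries and 0.137 to 0.537 CPM in the brain libraries. The part of fat tissue in the receptor values was not tested. In a piece of tissue, fewer cells of a type and less RNA per cell cannot be told apart.

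The receptors were first compared between the tissues. Of the 28 members tested between control brain and control liver, 23 were higher in brain and 3 were higher in liver at an adjusted p under 0.05 in edgeR. Over all genes tested, 42.8% were higher in brain and 35.5% were higher in liver, 78.3% in all. The 3 receptors higher in liver were all adrenergic. Adra1b, the Gq-coupled receptor through which noradrenaline acts on hepatocytes, was at 101 ± 23.6 CPM in control liver and 16.7 ± 6.42 CPM in control brain (SD, n = 3, scaled with the factors of this fit), a log2 difference of -2.59 (SE 0.32, edgeR adjusted p = 4.75e-05). Adra2b, a Gi-coupled receptor, differed by -2.79 (SE 0.46, edgeR adjusted p = 0.000356). Adrb3, the Gs-coupled receptor best known from fat tissue, differed by -3.82 (SE 0.37, edgeR adjusted p = 8.13e-06). The other two did not pass, among them Adra1a with a log2 difference of -0.022 (SE 0.25). These differences depended on the scaling, since the TMM factors of the tissue fit moved brain against liver by -1.12 on the log2 scale, relative to CPM scaled within each tissue. With library totals alone, a setting chosen after seeing the data, the median difference of all genes was 1.30 instead of 0.20 and Adra1a was higher in brain by 1.08 (SE 0.26, edgeR adjusted p = 0.00299). Adra1b (-1.47), Adra2b (-1.69) and Adrb3 (-2.75) remained higher in liver there. Among the receptors of brain, 10 had no count in any control liver library while giving more than 3 counts in control brain. Set against a floor of 3 counts over the 3 liver libraries and scaled as in this fit, these were at least 4.21-fold (Chrm5) to at least 140.1-fold (Adra1d) higher in brain. Other large bounds were 101-fold for Htr5a and 93.9-fold for Htr1a, the Gi-coupled receptor that also limits the firing of serotonin neurons.

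Levels of different receptors were then set side by side per kb of exon, from here on in CPM scaled within each tissue. In the 6 brain libraries the highest was Hrh3, the Gi-coupled histamine receptor that restrains transmitter release, with a mean level of 23.4 CPM per kb (16.8 to 29.3). Chrm4 (20.4, range 16.0 to 27.8) and Chrm1 (18.5, range 13.0 to 28.7) followed, and the ranges of all 3 overlapped. The gene model used for Chrm4 was a single exon of 1.44 kb, and the RefSeq start lay upstream of it, so its level per kb is uncertain. Adra1d (9.06), Htr2c (7.69), Adra2c (7.59), Adrb1 (6.55) and Adra1b (5.73) came next, and their ranges overlapped too. This order pools both groups. Adra1d had a mean of 12.5 CPM per kb in controls and 5.58 after heat, where Adra2c (9.10), Htr2c (8.51) and Adrb1 (5.91) lay above it. At the other end, Hrh4 had no count in any of the 12 libraries, and 3 counts would be at most 2.87e-05% of a library. Htr2b and Htr3b gave at most 1 count in a brain library. In liver Adra1b was far above the rest at 18.9 CPM per kb (15.7 to 23.3). Adrb3 (1.96, range 1.15 to 2.54) was next, and its range overlapped with that of Adra2b (1.04, range 0.727 to 1.38). In liver 13 members had no count in any of the 6 libraries, and 19 had at most 3 counts in every one.

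**Figure D1:**
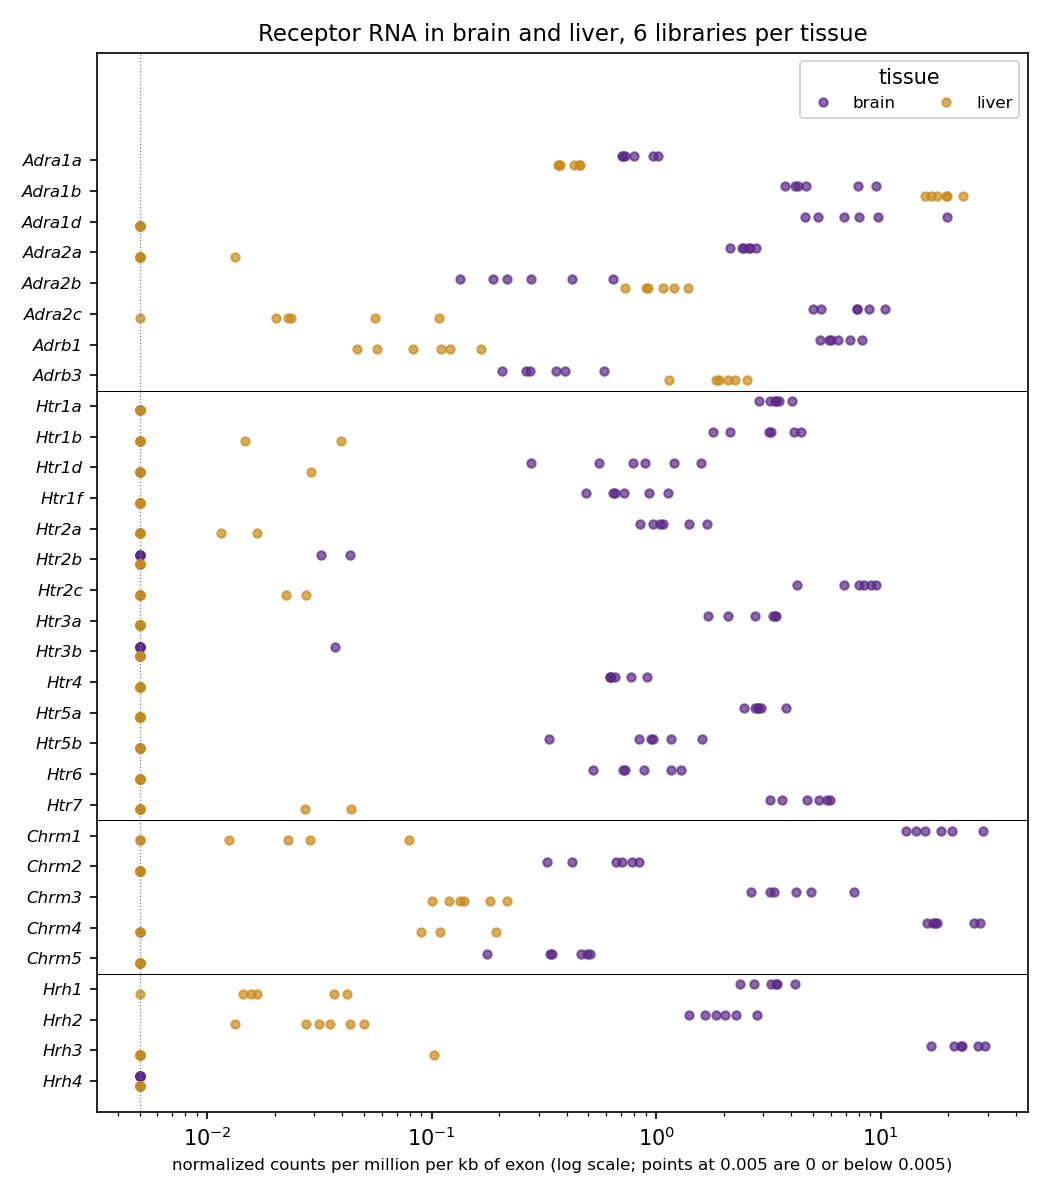
Level of receptor RNAs in the 6 brain and 6 liver libraries (points), in CPM per kb of exon, scaled within each tissue, on a log axis; points at the dotted line are at 0 or below 0.005. Most receptors lie to the right in brain, while Adra1b, Adra2b and Adrb3 lie to the right in liver.

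The main question was whether heat stress changed receptor RNA in the brain. No member passed an adjusted p of 0.05 in edgeR (0 of 28 tested), as none of the 14806 genes tested did (0%), and the lowest adjusted p of a member was 0.170. At an unadjusted p under 0.05 in edgeR 6 members were called, which is 21.4% against 20.1% of all genes tested, so their share was near the background. By direction 3 were higher and 3 were lower, where 10.0% of all genes were higher and 10.0% were lower. DESeq2 gave 7 members an adjusted p and called 1, Chrm3, which was lower, while it called 7.56% of all genes it gave one. It gave no adjusted p to Adra1d, Adra1b, Htr1b and Htr1d, so it could not call them. The unadjusted DESeq2 p was 0.000229 for Adra1d, beside 0.000244 for Chrm3. Heat and control libraries did not overlap for 4 of the 28 members, or 14.3%, against 24.9% of all genes. The log2 fold change was below 0 for 19 of 28 members, or 67.9%, where it was below 0 for 50.3% of all genes. The median over the members was -0.19, beside -0.0030 over all genes. The 4 members left out by the filter on low counts were Chrm5, Htr2b, Htr3b and Hrh4.

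The 3 members called lower were all coupled to Gq. Adra1d, an alpha-1 receptor for noradrenaline (chr2:131545850-131562283, minus strand, GRCm38), was at 37.7, 15.2 and 18.5 CPM in controls 1 to 3 and at 9.97, 8.78 and 13.0 CPM in heat libraries 1 to 3. Every heat library lay below every control, and control 1 was the highest by a wide margin. Its log2 fold change was -1.18 (SE 0.32, edgeR adjusted p = 0.170) and was -0.67 without control 1. Chrm3, the muscarinic receptor of smooth muscle, glands and forebrain neurons (chr13:9875486-10360847, minus strand), was at 47.6, 26.4 and 30.8 CPM in controls and at 20.1, 16.5 and 21.0 CPM after heat. The groups again did not overlap, and control 1 was again the highest. Its log2 fold change was -0.87 (SE 0.22, edgeR adjusted p = 0.170) and was -0.57 without control 1. The DESeq2 adjusted p, on all 6 libraries, was 0.0152. Adra1b (chr11:43774606-43901210, minus strand) was at 32.4, 14.1 and 26.7 CPM in controls and at 15.8, 14.5 and 12.7 CPM after heat. Control 2 lay among the heat libraries. The log2 fold change was -0.77 (SE 0.27, edgeR adjusted p = 0.183). It was -0.51 without control 1 and -0.69 without heat 3, and in both fits its unadjusted p was above 0.05.

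The 3 members called higher were all coupled to Gi. Adra2c, a receptor that restrains noradrenaline release and is abundant in striatum (chr5:35278319-35281763, plus strand), was at 17.3, 27.1 and 18.6 CPM in controls. After heat it was at 27.1, 30.7 and 36.2 CPM, so that heat 1 was only just above control 2. Its log2 fold change was 0.58 (SE 0.19, edgeR adjusted p = 0.172). Htr1b, a serotonin receptor on axon terminals (chr9:81628291-81633828, minus strand), was at 8.50, 15.4 and 10.1 CPM in controls and at 19.5, 15.0 and 21.0 CPM after heat. Heat 2 lay just below control 2, so the groups overlapped. The log2 fold change was 0.71 (SE 0.23, edgeR adjusted p = 0.173). Htr1d, a close relative of Htr1b (chr4:136423524-136444398, plus strand), gave 13, 29 and 22 counts in controls and 31, 43 and 54 counts after heat. In normalized units these were 1.73 ± 0.821 and 3.94 ± 1.12 CPM (SD, n = 3), with no overlap. Its log2 fold change was 1.20 (SE 0.39, edgeR adjusted p = 0.173). Without heat 3 it was 0.97 and its unadjusted p was above 0.05. On the strand opposite to Htr1b lies D430036J16Rik, which overlaps its exons. That gene gave 16, 35 and 24 counts in controls and 40, 39 and 60 after heat (log2 fold change 1.09, SE 0.38, edgeR adjusted p = 0.184). Whether the counting used strand is not given in the sources used here, so reads of Htr1b and D430036J16Rik may not be separated.

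**Figure D2:**
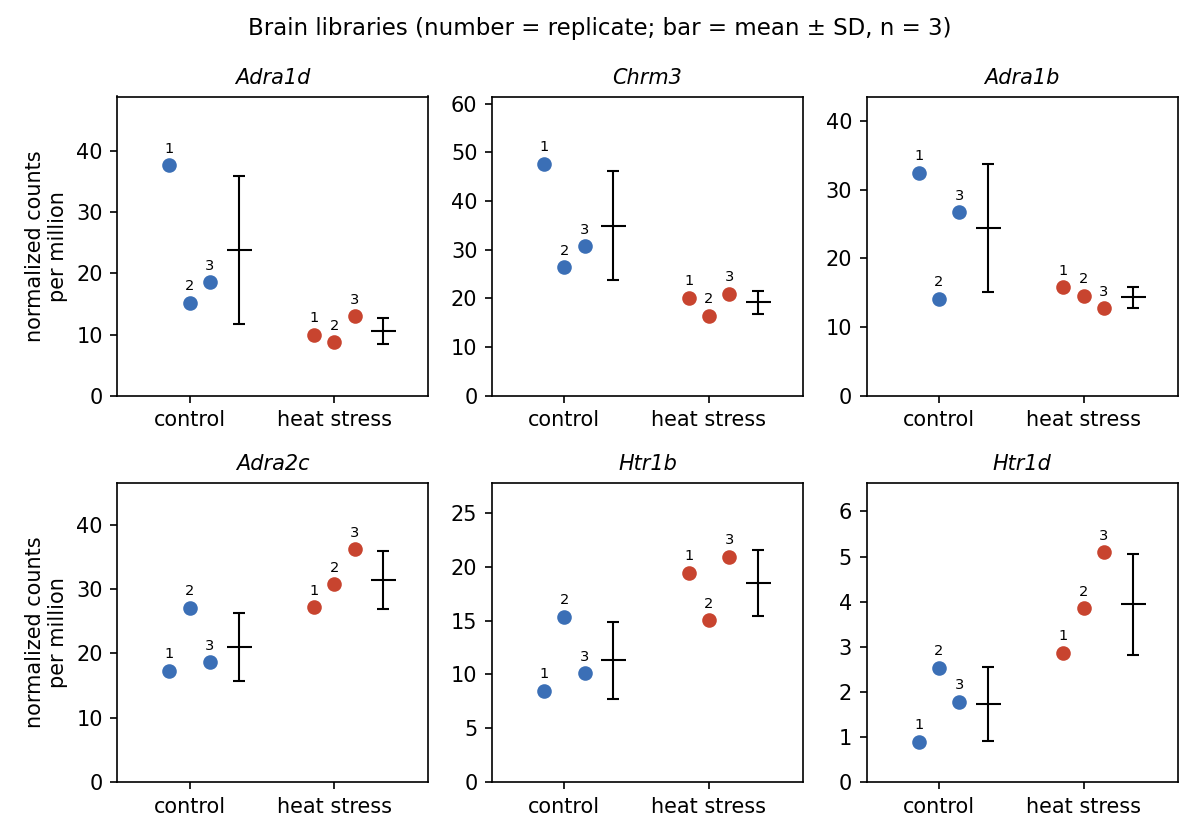
Normalized CPM of the named receptors in the 3 control and 3 heat stress brain libraries (points, numbered by replicate), with mean ± SD. Adra1d and Chrm3 lie lower and Adra2c and Htr1d higher in all 3 heat libraries, while Adra1b and Htr1b overlap between groups.

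The promoter sequences of 4 of these receptors are shown because their RNAs were among the members with the lowest p values in the brain. Each lies in the 250 bases before the RefSeq start nearest to the annotated gene start (GRCm38.p6), written 5′ to 3′ on the strand of the gene. The windows lie at chr11:43901238-43901487 (minus strand) for Adra1b, chr9:81633833-81634082 (minus strand) for Htr1b and chr4:136423274-136423523 (plus strand) for Htr1d. For Chrm3 the last 44 bases of the window lie inside the GENCODE gene model, and only the 206 bases upstream of it are shown (chr13:10360848-10361053, minus strand). The Adra2c window is not shown, since 247 of its bases lie inside the GENCODE gene model. Capitals mark matches to the motifs searched.
Chrm3: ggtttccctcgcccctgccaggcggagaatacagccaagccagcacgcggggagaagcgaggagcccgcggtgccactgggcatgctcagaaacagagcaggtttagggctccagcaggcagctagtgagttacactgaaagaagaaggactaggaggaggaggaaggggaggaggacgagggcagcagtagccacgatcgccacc
Adra1b: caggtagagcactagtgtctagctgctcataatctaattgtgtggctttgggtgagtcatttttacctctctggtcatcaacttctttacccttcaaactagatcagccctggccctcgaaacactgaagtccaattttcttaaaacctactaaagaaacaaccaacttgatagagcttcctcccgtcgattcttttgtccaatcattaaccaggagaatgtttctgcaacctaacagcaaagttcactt
Htr1b: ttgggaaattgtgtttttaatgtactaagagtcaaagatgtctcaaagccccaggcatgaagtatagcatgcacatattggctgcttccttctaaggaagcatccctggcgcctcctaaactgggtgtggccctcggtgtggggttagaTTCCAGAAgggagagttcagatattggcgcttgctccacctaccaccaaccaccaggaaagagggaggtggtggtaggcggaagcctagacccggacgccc
Htr1d: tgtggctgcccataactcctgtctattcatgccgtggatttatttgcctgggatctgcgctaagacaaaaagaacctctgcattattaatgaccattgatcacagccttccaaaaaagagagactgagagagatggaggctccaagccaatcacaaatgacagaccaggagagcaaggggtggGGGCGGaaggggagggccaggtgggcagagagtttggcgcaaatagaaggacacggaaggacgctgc

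The motifs searched on both strands were the cyclic AMP response element TGACGTCA, its core TGACG (which every TGACGTCA also contains), the GC box GGGCGG and a pair of heat shock units TTCNNGAA. Windows were found for 23 of the 32 members, 30 in all because some have several starts, and not for Adra1d. TGACGTCA was in none of the 30 windows, and in 1.55% of the 32851 windows of all genes. TGACG was in 3 of 30 (17.8% of all windows), GGGCGG in 16 of 30 (32.7%) and TTCNNGAA in 3 of 30 (7.17%). Some windows of the same gene overlap, so the 30 are not independent. Those of Hrh2 (chr13:54191879-54192128 and chr13:54191883-54192132) share 1 GGGCGG that is counted in each, and windows of Hrh1 also overlap. In the windows of Chrm3, Adra1b, Adra2c, Htr1b and Htr1d, Htr1b held 1 TTCNNGAA and Htr1d held 1 GGGCGG, and the other 3 windows held no match. Over the whole window GC content ran from 41.6% in Adra1b through 51.6% in Htr1d, 52.4% in Htr1b and 53.6% in Adra2c to 61.2% in Chrm3, beside a median of 52.4% over all windows. These are the windows nearest the gene starts. A second RefSeq start of Adra1b had 72.8% GC, 22 CG pairs and 1 GGGCGG, against 3 CG pairs in the printed window. A second start of Htr1d had 72.4% GC, 20 CG pairs and 3 GGGCGG, against 6 CG pairs in the printed window. These matches are letters in a window and do not show that a factor bound there.

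The brain values were then grouped by coupling, without a test of the difference between the groups. Of 8 Gq receptors tested, 3 were lower and 0 were higher at an unadjusted p under 0.05 in edgeR, 7 had a log2 fold change below 0, and the median was -0.37. Over all genes 10.0% were lower, 10.0% were higher and 50.3% lay below 0 in the same fit. Of 12 Gi receptors tested, 3 were higher and 0 were lower, and 6 lay on each side of 0 with a median of -0.03. Of 7 Gs receptors tested none was called in either direction by this measure, 5 lay below 0, and the median was -0.28. DESeq2 gave 1 of these 7 an adjusted p and did not call it. The summed level of all Gq receptors was 379, 284 and 282 CPM in controls and 247, 243 and 272 CPM after heat. The sum of the Gs receptors was 67.5, 57.9 and 67.3 CPM in controls and 57.2, 54.4 and 53.5 CPM after heat, so it too was lower in every heat library. The Gi sum was 208, 178 and 180.1 CPM in controls and 194, 188 and 245 CPM after heat, and the groups overlapped. These sums are descriptions, and Chrm1 made up the largest share of the Gq sum. Chrm1, the main muscarinic receptor of cortex and hippocampus, was at 186, 121 and 102 CPM in controls and at 84.3, 93.7 and 135 CPM after heat (log2 fold change -0.39, SE 0.24, edgeR adjusted p = 0.384), and the groups overlapped. Its fold change was -0.096 without control 1 and -0.62 without heat 3. The exception among Gq receptors was Htr2c, which is edited and abundant in choroid plexus and brainstem. It was at 39.5, 78.5 and 74.5 CPM in controls and at 89.2, 84.8 and 64.0 CPM after heat (log2 fold change 0.31, SE 0.24, edgeR adjusted p = 0.490), and its fold change was 0.053 without control 1.

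The most abundant Gi receptors showed no separation. Chrm4, the muscarinic receptor of striatal projection neurons, was at 37.6, 25.7 and 24.7 CPM in controls and at 25.2, 23.1 and 40.0 CPM after heat (log2 fold change 0.0032, SE 0.23). Its highest values were in control 1 and heat 3. Hrh3 was at 85.6, 52.8 and 72.2 CPM in controls and at 71.9, 66.7 and 92.1 CPM after heat (log2 fold change 0.13, SE 0.19). The sign of both depended on which library was included. Among the remaining tested receptors the lowest p was that of Chrm2 (log2 fold change -0.66, SE 0.30, edgeR adjusted p = 0.260), the muscarinic receptor of the heart and of cholinergic terminals. Hrh1 (-0.35, SE 0.18) and the Gs-coupled Adrb1 (-0.28, SE 0.15), Hrh2 (-0.36, SE 0.23) and Htr4 (-0.28, SE 0.24) had values below 0, and Htr6 (0.23, SE 0.38) and Htr1f (0.33, SE 0.35) above 0. The channel subunit Htr3a differed by -0.035 (SE 0.30). Adra2a (-0.058, SE 0.15), Htr1a (-0.12, SE 0.15) and Htr2a (-0.013, SE 0.28) were also within 1 SE of 0. The remaining differences were -0.27 for Adra1a (SE 0.20), -0.33 for Adra2b (SE 0.58), -0.25 for Htr5a (SE 0.15), -0.46 for Htr5b (SE 0.45), -0.12 for Htr7 (SE 0.24) and 0.58 for Adrb3 (SE 0.40). None of these had an unadjusted p under 0.05.

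**Figure D3:**
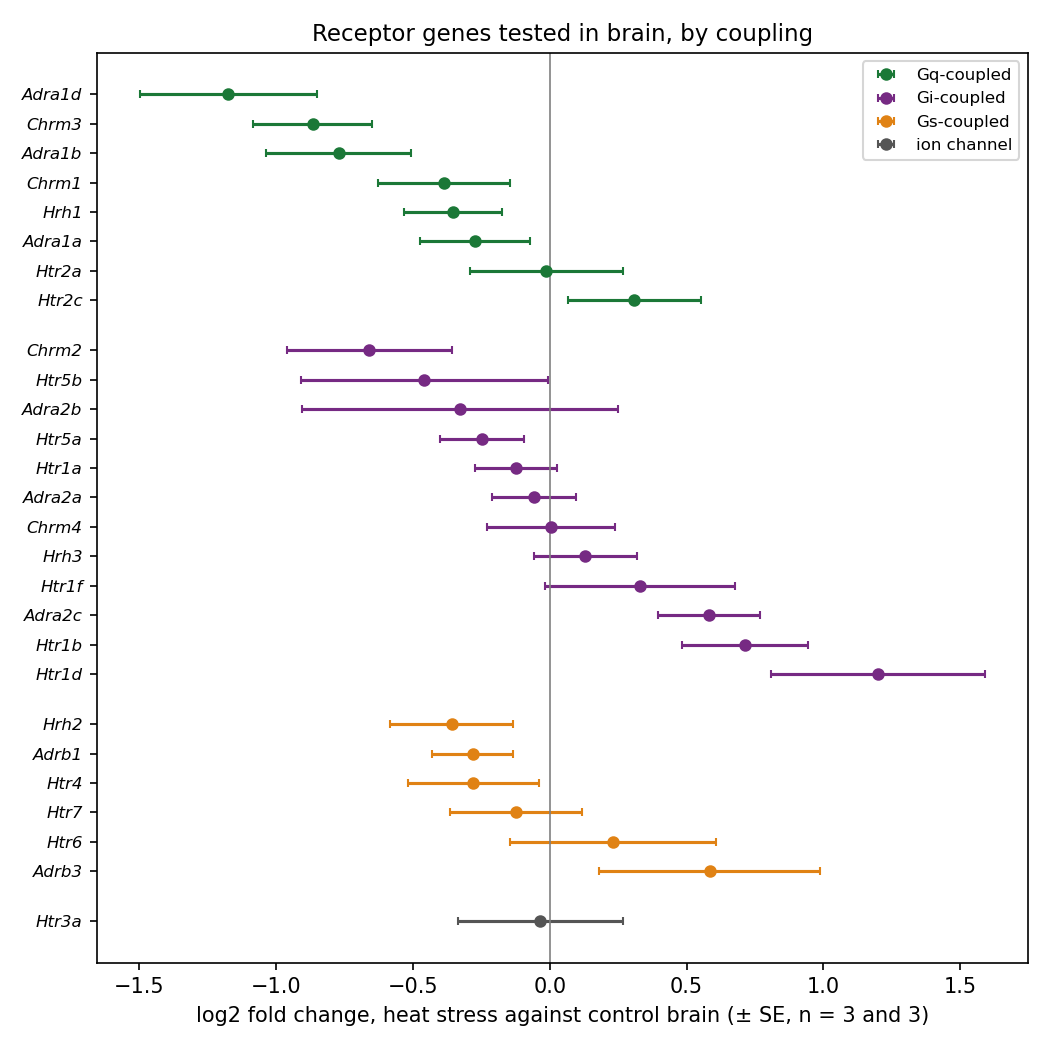
Log2 fold change (heat stress minus control) of receptors tested in brain, with bars of 1 standard error, grouped and coloured by G protein coupling. The Gq receptors run from -1.18 to 0.31 with 7 of 8 below 0, and the Gi receptors from -0.66 to 1.20.

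The brain libraries differed in their content of region and cell markers. Some of these values moved with the group and others cut across it. Of 12 striatal markers tested, 11 were higher after heat at an unadjusted p under 0.05 in edgeR, with a median log2 fold change of 1.09. Their sum ran from 816 to 1376 CPM in controls and from 1317 to 2613 CPM after heat. All 10 cortical and hippocampal markers had a log2 fold change below 0 (1 lower at that p, median -0.37), and their sum was highest in control 1 at 1984 CPM, against 993 to 1339 CPM in the other 5. Choroid plexus markers were lower for 9 of 12 genes (median -1.31), and thalamic and habenular markers for 5 of 12 (median -1.13). Endothelial markers were lower for 7 of 8 genes (median -1.04), with a sum of 129 to 268 CPM in controls and 87.8 to 111 CPM after heat. Mural and smooth muscle markers were lower for 3 of 7 genes (median -0.66), with a sum of 180 to 228 CPM in controls and 163 to 209 CPM after heat. The sum of T and NK cell markers (7 genes) was 3.89 to 5.76 CPM in controls and 6.63 to 19.0 CPM after heat. Of these 7 genes, 1 passed the filter in brain and 5 gave at most 3 counts in every brain library. General neuronal markers were called in neither direction (0 of 8 in edgeR by unadjusted p, 0 by DESeq2, median -0.08). The part of these differences in the receptor values was not tested. Without control 1 and heat 3 together, the libraries with the highest cortical and the highest striatal sum, Adra1b (-0.43), Adra2c (0.34), Htr1b (0.44) and Htr1d (0.64) kept their sign but had an unadjusted p above 0.05 in edgeR. In that fit Adra1d, Chrm1 and Chrm3 were lower at an unadjusted p under 0.05.

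**Figure D4:**
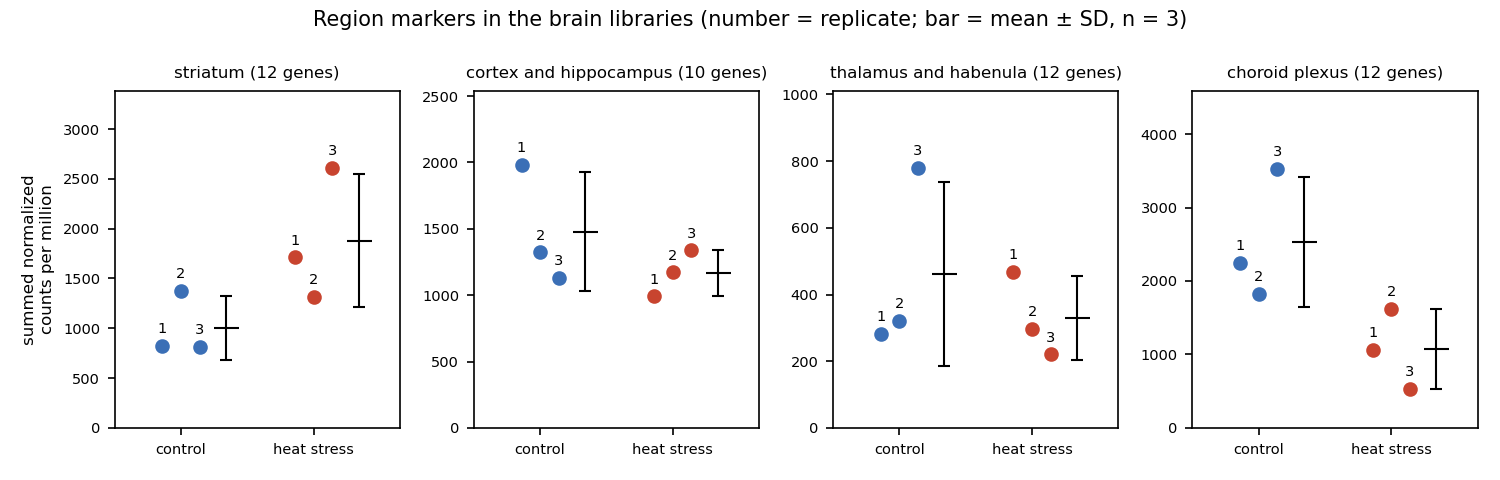
Summed normalized CPM of 4 marker lists in the 3 control and 3 heat stress brain libraries (points, numbered by replicate), with mean ± SD. Striatal sums reach 2613 in heat 3, the cortical sum is highest at 1984 in control 1, and the choroid plexus sums lie lower in all 3 heat libraries.

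The genes around the receptors were counted in the same brain fit, and none of them passed an adjusted p of 0.05 in edgeR. For synthesis, transport and breakdown of the transmitters, 19 genes were tested, of which 2 were higher and 1 was lower at an unadjusted p under 0.05, or 15.8% called against 20.1% of all genes. Of the 19, 15 had a log2 fold change above 0 (21.1% below 0, against 50.3% of all genes). Some varied widely within groups. Slc6a3 gave 21, 13 and 468 counts in controls and 288, 25 and 5 after heat. Tph2 gave 15, 33 and 92 counts in controls and 201, 86 and 11 after heat. Both also belong to the midbrain and hindbrain marker list. Hnmt, which inactivates histamine in the brain, was at 26.1 ± 4.58 CPM in controls and 40.7 ± 6.29 CPM after heat (SD, n = 3; log2 fold change 0.65, SE 0.16, edgeR adjusted p = 0.170, DESeq2 adjusted p = 0.0231). Slc5a7, the choline transporter of cholinergic terminals, had a log2 fold change of 0.92 (SE 0.37), and Slc29a4, a low-affinity monoamine transporter, one of -0.54 (SE 0.22). Of 33 G protein and effector genes tested, 2 were higher and 7 were lower, or 27.3% called, and 23 had a log2 fold change below 0 (69.7%, against 50.3% of all genes). Adcy1, a calcium-stimulated adenylyl cyclase, was at 939 ± 104 CPM in controls and 620 ± 65.7 CPM after heat (SD, n = 3; log2 fold change -0.60, SE 0.15, edgeR adjusted p = 0.170, DESeq2 adjusted p = 0.00627). The other lower genes were the cyclases Adcy3 (-0.40) and Adcy9 (-0.58), the potassium channel subunits Kcnj6 (-0.75) and Kcnj9 (-0.56), the phospholipase Plcb3 (-0.39) and the calcium release channel Itpr2 (-0.32). Adcy5 (0.49), the main cyclase of striatum, and Prkar2b (0.39), a regulatory subunit of protein kinase A, were higher. Of 14 desensitization genes, Rgs2 (0.48) and Rgs9 (1.12) were higher and Rgs16 (-1.11) was lower, or 21.4% called, and 9 lay below 0 (64.3%). The groups overlapped for Rgs9 (42.2, 74.4 and 45.7 CPM in controls, 95.5, 61.7 and 194 CPM after heat, with heat 3 the highest). They also overlapped for Rgs16 (13.7, 15.1 and 39.1 CPM in controls, 15.7, 8.60 and 7.18 CPM after heat, with control 3 the highest). Of 15 phosphodiesterases that break down cyclic AMP, Pde1b (0.67) and Pde1c (0.59) were higher and 0 were lower, or 13.3% called. Of the 15, 10 lay above 0 and 5 below (33.3%). In brain DESeq2 called Hnmt, 1 of 5 synthesis, transport and breakdown genes it gave an adjusted p, Adcy1, 1 of 28 G protein and effector genes, and Pde1b, 1 of 11 phosphodiesterases (adjusted p = 0.0313), beside 7.56% of all genes. Adcy5, Rgs9 and Pde10a of these lists also belong to the striatal marker list.

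In liver the receptors that could be tested did not differ between heat and control beyond the spread between libraries. The 6 tested included Adra1a, Adra1b, Adra2b, Adrb3 and Chrm3. In edgeR 0 passed an adjusted p of 0.05 (0% of 12296 genes did) and 0 had an unadjusted p under 0.05 (5.84% of all genes, 2.97% higher and 2.87% lower), and DESeq2 called 0 (0.511% of all genes it gave an adjusted p). For none of the 6 did the groups separate, where 11.1% of all genes did (5.38% higher and 5.73% lower), and 5 of 6 had a log2 fold change below 0 (48.2% of all genes). Adra1b was at 78.9, 56.8 and 66.5 CPM in controls and at 60.2, 67.0 and 53.2 CPM after heat, with a log2 fold change of -0.16 (SE 0.18, edgeR adjusted p = 0.951), or -0.28 to -0.047 over libraries left out. Adrb3 was at 3.87, 8.56 and 6.43 CPM in controls and at 6.25, 7.04 and 7.57 CPM after heat, and its value of 0.15 (SE 0.29) became -0.12 without control 1. Chrm3 was at 1.36, 1.14 and 0.839 CPM in controls and at 0.745, 0.627 and 0.868 CPM after heat (log2 fold change -0.59, SE 0.39). Adra2b (-0.24, SE 0.28, range -0.46 to -0.063 over libraries left out) and Adra1a (-0.081, SE 0.25, range -0.19 to -0.017) had smaller differences.

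The remaining liver receptors were near the floor. Hrh2, the highest histamine receptor of liver per kb, gave 4, 2 and 2 counts in controls and 4, 3 and 1 after heat. Htr7, the highest serotonin receptor per kb over the 6 libraries, gave 0, 0 and 1 counts in controls and 2, 0 and 0 after heat. In control liver alone Htr1b was above it (0.0132 against 0.00914 CPM per kb). Adrb1 gave 3, 5 and 6 counts in controls and 5, 4 and 2 after heat. Chrm1 gave 8, 1 and 2 counts in controls and 2, 0 and 0 after heat, and the 8 counts were in control 1, the library with 132 counts of Snap25. The part of neuronal RNA in those counts was not tested. Among the pathway genes of liver, Gch1, which makes the cofactor of monoamine synthesis, was at 166 ± 9.67 CPM in controls and 225 ± 21.5 CPM after heat (SD, n = 3; log2 fold change 0.44, SE 0.17, edgeR adjusted p = 0.810). Ddc, the decarboxylase that yields dopamine and serotonin, was at 74.9 ± 12.2 CPM in controls and 49.4 ± 7.55 CPM after heat (log2 fold change -0.60, SE 0.19, edgeR adjusted p = 0.660). They were 2 of 10 synthesis, transport and breakdown genes tested with an unadjusted p under 0.05 in edgeR, where 5.84% of all liver genes were called. Gnai3 (-0.51, SE 0.19) was 1 of 24 G protein and effector genes, while 0 of 10 desensitization genes and 0 of 13 phosphodiesterases tested reached it or passed an adjusted p of 0.05 in DESeq2. Rgs16, a brake on Gi and Gq signalling, had the largest log2 fold change of the liver pathway genes tested in edgeR. It was at 13.0, 18.6 and 146 CPM in controls and at 193, 223 and 360 CPM after heat. Every heat library lay above every control, and control 3 was far above the other controls (log2 fold change 2.13, SE 1.03, edgeR adjusted p = 0.909). The T and NK cell marker sum was 2.45 to 4.16 CPM in control livers and 6.20 to 14.1 CPM after heat, and 3 of 5 markers tested were higher at an unadjusted p under 0.05 in edgeR. The part of these cells in the liver values was not tested.

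**Figure D5:**
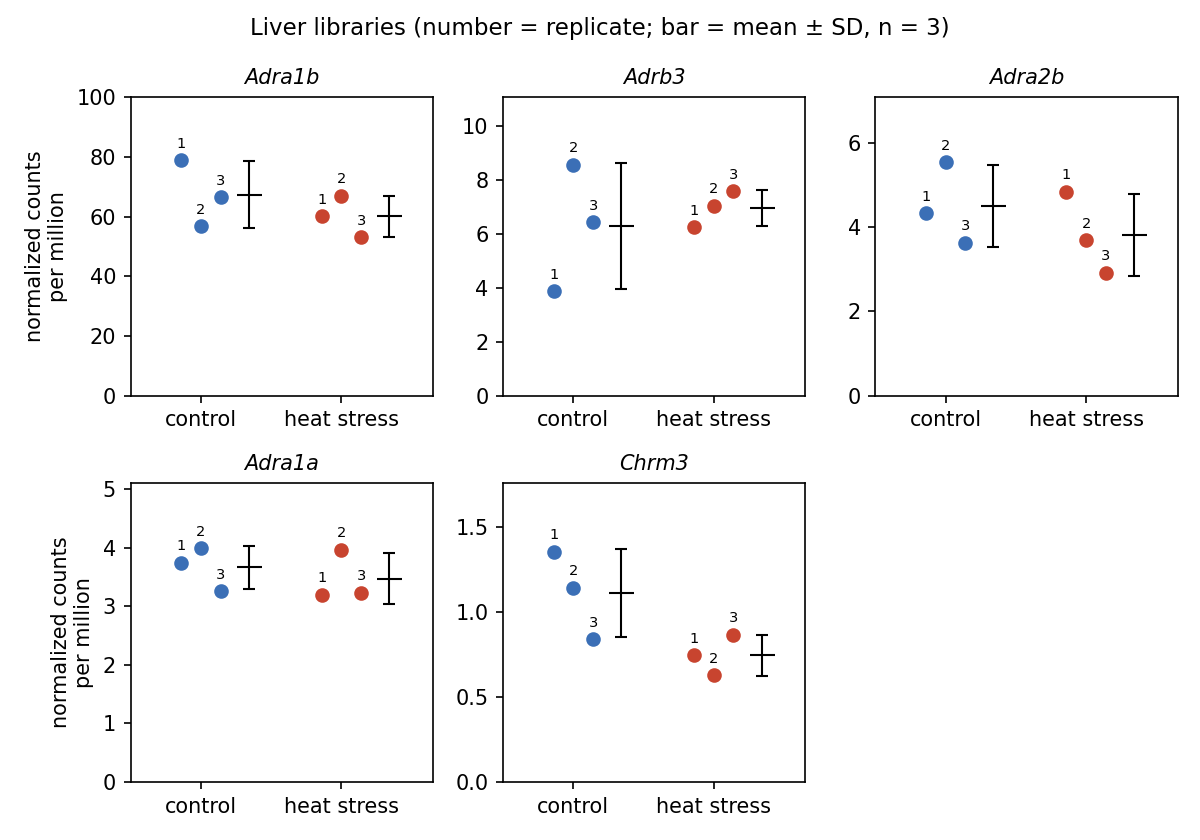
Normalized CPM of 5 receptors tested in liver in the 3 control and 3 heat stress libraries (points, numbered by replicate), with mean ± SD. The groups overlap for every receptor shown, and Adra1b lies between 53.2 and 78.9 in all 6 libraries.

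The effect of heat was also compared between the tissues. In the edgeR interaction test 0 of 28 members passed an adjusted p of 0.05 (0.00632% of all genes did), and 1 had an unadjusted p under 0.05 (9.64% of all genes). That member was Adra2c, whose liver libraries held at most 4 counts each. Only 6 members passed the filter in both tissues' own fits, and most of the 28 entered this test through their brain counts. For members with no liver count, such as Adra1d (SE 2422), the test could not call a difference. So 0 of 28 is not a result about most of these receptors. DESeq2 called 0 members, and 48 of the 20600 genes it fitted.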

How the data were processed

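Polyadenylated RNA of 12 brain and liver libraries was sequenced with a stranded kit. The authors deposited a merged table of raw read counts per gene for all 12 libraries, named by symbol. The submitters' processing notes name Trimmomatic 0.39, FastQC 0.11.9, HISAT2 2.2.1, featureCounts (Subread 2.0.1) and the build mm10, while the paper also describes another aligner and counter. The annotation release, the strand setting and the treatment of multi-mapping reads are not given in the sources used here. The deposited tables of the authors' own comparisons (fold changes and p-values) were not used. Every sample column of the count table matched a library.

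Counts were fitted in R 4.3.3 with edgeR 4.0.16 (quasi-likelihood test, TMM factors, filterByExpr requiring 10 counts in enough libraries and 15 in total, Benjamini-Hochberg adjustment over all genes tested). Each tissue was fitted on its 6 libraries, the interaction on all 12 and the tissue difference on the 6 controls. DESeq2 1.42.0 on the same counts was an alternative, and an adjusted p it did not give was left out. Normalized CPM are counts over the library total scaled by TMM within each tissue, unless the text names the scaling of the tissue fit, and levels per kb divide them by the merged exon length in GENCODE M21 (GRCm38), which held 24366 of the 25239 symbols and all 32 receptors. Promoter windows were read from RefSeq (GRCm38.p6). The values of 1 receptor are not reported here, while counts, medians and sums over receptors include it. At totals of 10466198 to 15609040, 3 counts were taken as the floor. Floors cover counting error only.

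Values in every library are given for receptors with an unadjusted p under 0.05 in edgeR, an adjusted p under 0.05 in DESeq2, or the highest level per kb of their transmitter family in a tissue, while pathway genes with an unadjusted p under 0.05 are given by their log2 fold change. Chrm1, the remaining liver receptors, D430036J16Rik and Rgs16 in liver were added after their values were seen. The receptors and all gene lists were chosen with earlier results of these data known. Alternatives were other size factors, DESeq2, a fit of all 12 libraries, other filters, a replicate block, a term for liver libraries whose column name carries the suffix 2nd, and each library left out. The methods give 3 mice per group, and the labels do not name the mouse of a library, so p-values measure the spread between these libraries.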

Additional observations from a re-analysis of the deposited data

Results flagged for a closer look

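For Adra2c the heat effect pointed in opposite directions in the tissues. All 3 heat brain libraries lay above the controls, and all 3 heat liver libraries lay below them in CPM. The difference of the log2 fold changes, liver minus brain, was -2.54 (SE 0.90, edgeR adjusted p = 0.516 for the interaction), so it did not pass after adjustment over all genes. The liver values rest on 3, 1 and 4 counts in controls and 0, 1 and 1 counts after heat, and the liver libraries with 1 count are ordered only by their library totals.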

How the results depend on the processing

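In brain, no receptor passed an adjusted p of 0.05 under any edgeR setting. DESeq2 called 1 of the 7 it gave an adjusted p (Chrm3, adjusted p 0.0152). At an unadjusted p under 0.05, 3 receptors were lower. With the replicate number as a block there were 5 lower (Chrm2 and Hrh1 added). The numbers did not pair the samples, with same-number correlations of -0.295, 0.209 and -0.202 in brain and -0.608, -0.53 and -0.0898 in liver, so they are only names. Leaving out 1 library gave 2 to 5 lower (5 without control 2 or without heat 1, 2 without control 1) and 2 to 3 higher (2 without heat 3, where Htr1d was lost). Without control 1 and heat 3 together, chosen after seeing the data, 0 were higher. The fold changes of Adra1d (-1.42 to -0.67 over libraries left out), Chrm3 (-1.04 to -0.57), Adra1b (-1.05 to -0.51), Adra2c (0.46 to 0.80), Htr1b (0.54 to 0.99) and Htr1d (0.87 to 1.56) kept their sign under every setting run. Chrm4 turned below 0 in the fit of all 12 libraries (-0.0019), without a filter (-0.012), with the replicate block (-0.010) and without control 1 and heat 3 (-0.060), and ran from -0.28 to 0.23 over libraries left out. Hrh3 ran from -0.042 to 0.30. In liver, the edgeR fit of all 12 libraries tested 28 receptors and had 1 lower (Adra2c) at an unadjusted p under 0.05, while the other settings had 0. Most of these 28 passed the filter of that fit through their brain counts, since 6 passed in the liver fit. Those without a liver count could not be called. Adrb3 in liver ran from -0.12 to 0.44 and was -0.13 without control 1 and heat 2, the libraries with muscle RNA, an alternative also chosen after seeing the data. Receptors higher in brain than liver numbered 22 to 25 under all settings, and those higher in liver 3. The causes of these changes were not tested. With 3 libraries per group, low counts in liver limited what could be tested there.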
